A study of Sus scrofa with 40 samples.

Results

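The libraries described here are the 11 pools among 40 RNA-seq samples of pig oocytes at metaphase II, sorted by how much of each library was 18S ribosomal RNA. They were chosen by a measured value: the counts of RN18S, the gene of 18S ribosomal RNA, as a percentage of all counts assigned to a named gene. Pools under 0.3% form the 18S-low set (5 pools) and pools at 0.3% or more form the 18S-high set (6 pools). The sets are therefore no treatment or genotype of the study but a split of its libraries on their own content. The question was which other transcripts, with RN18S left out of every total, differed between the sets.

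All oocytes were mature, and the animals were a commercial hybrid of the Large White, Duroc and Berkshire breeds. The series was made to compare oocytes labelled mtDNA-deficient with oocytes labelled mtDNA-normal, and the titles carry the words neg and pos for the states, as BCBneg and BCBpos for single oocytes, a code that the labels do not explain. The 18S-low set held 3 deficient pools (A2, A3 and B4) and 2 normal pools (A3 and B1). The 18S-high set held 2 deficient pools (A1 and B2) and 4 normal pools (A2, A4, B2 and B4). The design text gives 5 per group, whereas 6 normal pools were given here. RNA of every pool was column-extracted and amplified with a single-primer isothermal method, and the number of oocytes in a pool, the animals behind it and the meaning of the letters A and B are not stated. The other 29 libraries are single oocytes prepared with a different kit and were not used to form the sets.

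18S ribosomal RNA is the RNA core of the small (40S) subunit of the ribosome, and 28S, 5.8S and 5S RNA belong to the large (60S) subunit. A fully grown oocyte carries a large store of ribosomes and of maternal mRNAs, makes little new RNA, and switches stored mRNAs on or off largely through the length of their poly(A) tails. Ribosomal RNA has no long poly(A) tail, and library kits differ in how much of it they prime or deplete.

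The 18S share ran from 0.175% to 1.30% of gene counts. The 18S-low pools stood at 0.175% (normal A3), 0.177% (deficient A2), 0.196% (normal B1), 0.204% (deficient A3) and 0.238% (deficient B4). The 18S-high pools stood at 0.427% (deficient B2), 0.441% (deficient A1), 0.623% (normal A4), 0.759% (normal A2), 0.878% (normal B4) and 1.30% (normal B2). Deficient B4 and deficient B2 were the pools nearest the 0.3% threshold, and no pool lay between 0.238% and 0.427%. The shares averaged 0.198% ± 0.0256 (SD, n = 5) and 0.737% ± 0.326 (SD, n = 6), which is a description, since these values made the sets. The 95% Wilson interval of each share reached no more than 0.00452 percentage points to either side, and such intervals cover counting error only. Both deficient pools of the 18S-high set had a lower share than all 4 of its normal pools. RN5-8S, the row for 5.8S RNA, held 3 to 16 counts per pool, 0.184 to 0.706 CPM (counts scaled to the library total) in the 18S-low set and 0.140 to 0.479 CPM in the 18S-high set, so the second ribosomal RNA row was too shallow to order the pools.

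**Figure D1:**
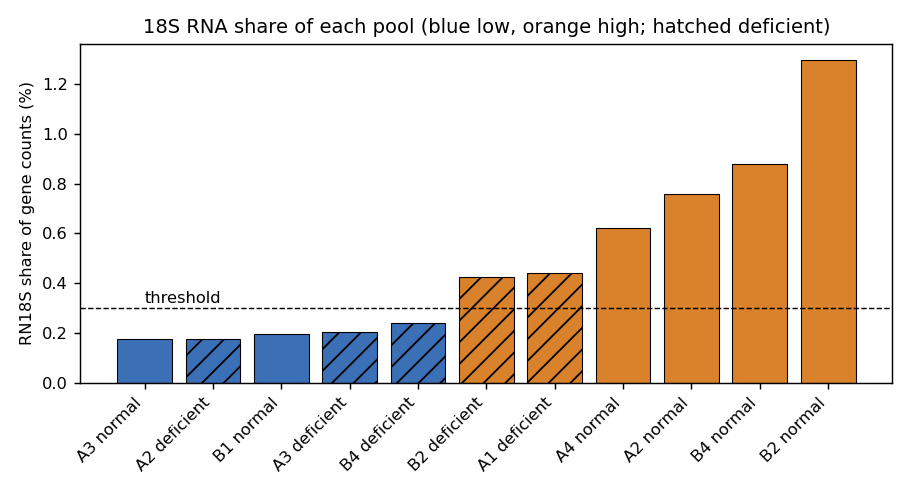
RN18S counts as a percentage of all named-gene counts (vertical axis) in each of the 11 pools, in rising order; hatched bars are mtDNA-deficient pools and the dashed line is the 0.3% threshold. The 18S-low pools lie within 0.175% to 0.238%, while the 18S-high pools spread from 0.427% to 1.30%.

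More genes were detected in the 18S-high pools. In the 18S-low set, genes with at least 1 count numbered 15056 (normal A3), 14206 (deficient A2), 17932 (normal B1), 16168 (deficient A3) and 16183 (deficient B4). The 18S-high pools had 17603 to 19244 genes, with a median of 18530.5. Normal B1 was the single 18S-low pool inside the range of the 18S-high set. The means, 15909 ± 1402 (SD, n = 5) and 18490 ± 670.3 (SD, n = 6), differed by 2581 genes, with p = 0.0133 in a two-sided exact permutation test that exchanged set labels only within an mtDNA state, or 0.0267 after Benjamini-Hochberg adjustment over the 8 library measures compared. The smallest p that the 150 arrangements allow is 0.00667.

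Library size did not separate the sets. Counts other than RN18S totalled 14454977 to 29481205 in the 18S-low set and 16190018 to 28640511 in the 18S-high set (exact permutation p = 0.687). At an equal depth of 14454977 counts, the expected number of genes was 15482 ± 1112 (SD, n = 5) in 18S-low and 17886 ± 627 (SD, n = 6) in 18S-high pools, again with an exact permutation p of 0.0133 (0.0267 adjusted). The direction at equal depth held within deficient pools (15228.5 genes in low against 17568 in high), within normal pools (15863 against 18045), among pools titled A (14864 against 17542) and among pools titled B (16409.5 against 18230.2). The 100 most abundant genes of a pool took 24.4% to 33.8% of counts in the 18S-low set and 23.9% to 27.3% in the 18S-high set, a difference of means that did not pass (exact permutation p = 0.147, adjusted 0.235).

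**Figure D2:**
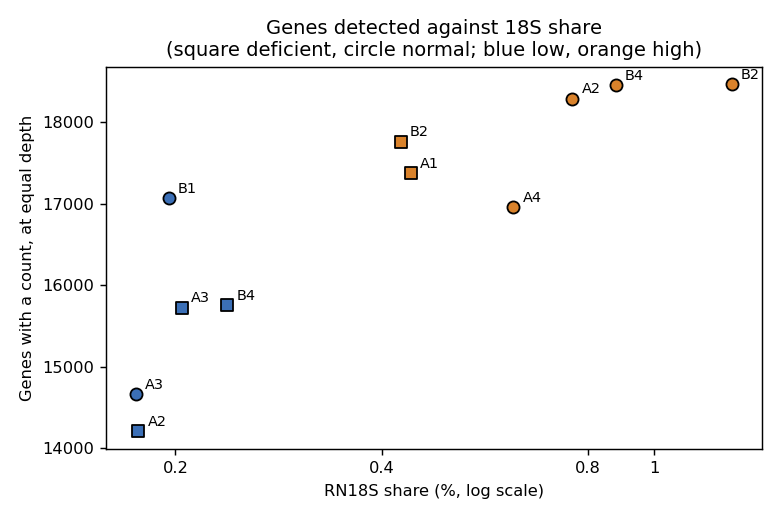
Genes with a count at an equal depth of 14454977 counts (vertical axis) against the 18S share on a log axis, 1 point per pool; squares are mtDNA-deficient, circles normal, blue 18S-low and orange 18S-high. Normal A3 and deficient A2, with the smallest 18S shares, also have the fewest genes, and normal B1 stands above the other 18S-low pools.

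Of 15044 genes tested across all pools, 527 (3.5%) were higher and 570 (3.79%) were lower in the 18S-high pools, 7.29% in all, by edgeR's quasi-likelihood test with mtDNA state in the model and Benjamini-Hochberg adjusted p under 0.05. Differences are given as log2 of 18S-high over 18S-low, so that positive values are higher in 18S-high pools. The genes that rose had a median level of 23.4 CPM and a median difference of 1.34, and 371 of them had a mean of at least 10 CPM. The genes that fell had a median level of 205 CPM and a median difference of -0.84, and 554 of them had a mean of at least 10 CPM. Over all genes tested the median level was 6.04 CPM, and 6367 had a mean of at least 10 CPM. The CPM ranges of the sets did not overlap at all for 1057 genes (7.03% of those tested), among them 365 of the 527 higher and 256 of the 570 lower genes.

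The direction of the difference followed the abundance of the gene. Among 3177 genes with a mean under 1 CPM, 39 rose and 3 fell, and the median difference was 0.56. From 1 to 10 CPM the median was 0.25, with 117 of 5500 genes up and 13 down. From 10 to 100 CPM it was -0.03, with 290 of 4416 up and 141 down. At 100 CPM or more it was -0.36, and here 413 of 1951 genes fell and 81 rose. Unnamed-locus genes (symbols starting with LOC) made up 14.4% of the higher, 26.7% of the lower and 38.5% of all genes tested.

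**Figure D3:**
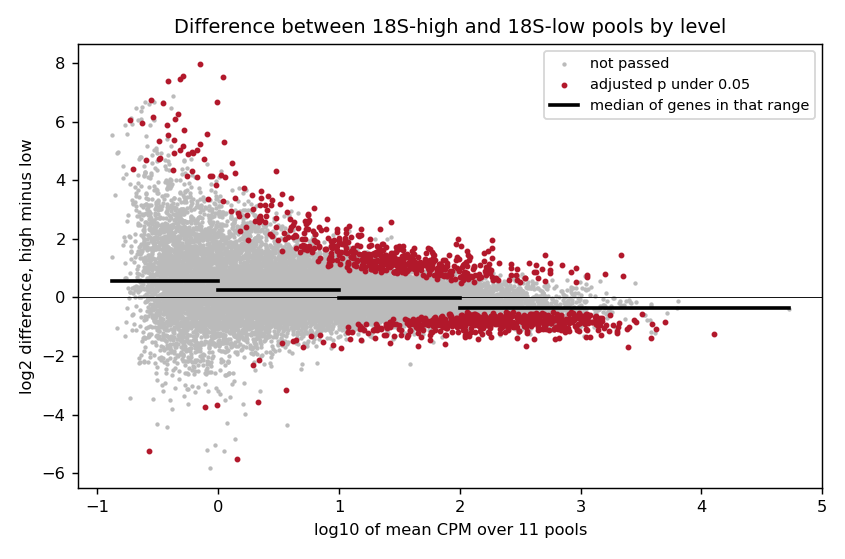
Difference between 18S-high and 18S-low pools (log2, vertical axis) against the log10 of each gene's mean CPM, 1 point per gene tested; red points passed the test and black bars are the medians of 4 abundance ranges. The medians step down from 0.56 under 1 CPM to -0.36 at 100 CPM or more, and red points at the right lie mostly below 0.

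These counts rest on how libraries were scaled and on single pools. With plain library totals in place of TMM factors, the median over all genes moved from 0.08 to 0.38 and the calls from 527 higher and 570 lower (48.0% higher) to 806 and 50 (94.2% higher). Leaving out deficient B2 left 1 higher and 0 lower genes, normal A3 left 14 and 1, normal B4 left 49 and 3, normal B2 left 144 and 72, normal A2 left 158 and 59, deficient A2 left 300 and 156, deficient A3 left 308 and 219, and normal B1 left 329 and 361; leaving out deficient B4 raised them to 877 and 1015. Without deficient A1, 378 higher and 387 lower genes remained, and without normal A4, 522 and 614. Deficient pools alone and normal pools alone gave 0 calls each, with 1160 and 3431 genes at an unadjusted p under 0.05 (edgeR). Each gene called kept its sign in every one of these fits that tested it. The genes were called for their difference in the same pools, so a kept sign was largely set in advance. Adding the number of genes detected as a covariate left 0 calls of 16187 genes (864 at an unadjusted p under 0.05, against 3748 in the model without it) and turned the sign of 40 of the 1097 called genes, so the 18S set and the number of genes detected cannot be told apart in these pools. Whether pools stem from different animals is not stated, so the p-values rest on the spread between libraries, which may be technical.

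The genes of largest difference are given for a mean of at least 10 CPM and leave out symbols that start with LOC. In what follows, values of the 18S-low pools are CPM on TMM-scaled totals in the order normal A3, deficient A2, normal B1, deficient A3 and deficient B4, and the 18S-high set is given by its range. TSC2, part of the complex that restrains mTORC1 signalling, stood at 1.54, 8.19, 2.78, 3.37 and 4.09 CPM in 18S-low pools and at 11.02 to 28.3 CPM, median 19.1, in 18S-high pools. Its sets did not overlap, and the difference was 2.43 (SE 0.45, adjusted p = 0.0220, edgeR). FLNC, the actin cross-linker filamin C, was at 6.29, 6.005, 7.88, 5.94 and 5.68 CPM in 18S-low pools. It reached 17.8 to 64.9 CPM, median 28.5, in 18S-high pools, a difference of 2.33 (SE 0.32, adjusted p = 0.00834, edgeR), and its 18S-low pools were tightly grouped.

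SCAP, which escorts the SREBP transcription factors that sense cholesterol, was at 6.83, 3.73, 5.14, 1.96 and 3.31 CPM in 18S-low and 7.01 to 29.9 CPM, median 20.8, in 18S-high pools, with a difference of 2.07. ESYT1, a tether between endoplasmic reticulum and plasma membrane, was the most abundant but one of these genes, at 23.6, 40.03, 44.4, 27.4 and 52.4 CPM against 74.03 to 201 CPM, median 153, and a difference of 2.00 (SE 0.28, adjusted p = 0.00834, edgeR). DAB2IP, a Ras GTPase-activating protein, was the most abundant, at 65.96, 22.1, 80.6, 79.3 and 89.8 CPM against 165 to 517 CPM, median 271. Deficient A2 stood well under the other 18S-low pools for DAB2IP. The sets also stayed apart, narrowly for PRSS2 and DNM2, for CHST10, a sulfotransferase (log2 difference 2.32), SMARCD2, a subunit of SWI/SNF chromatin remodelling complexes (log2 difference 2.22), FLOT2, a membrane scaffold protein (log2 difference 2.12), PRSS2, a trypsinogen (log2 difference 2.11), ZSWIM8, a receptor of an E3 ubiquitin ligase (log2 difference 2.00), RAD54L, a motor protein of homologous recombination (log2 difference 1.96), and DNM2, the membrane-severing GTPase dynamin 2 (log2 difference 1.86). They overlapped for MLXIP, a glucose-responsive transcription factor (log2 difference 2.14), and RNF185, a ubiquitin ligase of the endoplasmic reticulum (log2 difference 1.90). Each of these 14 genes passed the test, with adjusted p from 0.00834 to 0.0451 (edgeR).

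Of the genes that fell, the 15 of largest difference were taken by the same rule. RAD50, a subunit of the complex that senses DNA double-strand breaks, stood at 1325, 1806, 507, 1092 and 397 CPM in 18S-low pools and 288 to 472 CPM, median 351, in 18S-high pools, with a difference of -1.39 (SE 0.31, adjusted p = 0.0266, edgeR). Normal A3, deficient A2 and deficient A3 were high, and deficient B4 lay within the 18S-high range. ATRX, a chromatin remodeller, had the same shape, at 742, 749, 220.5, 452 and 116 CPM against 139 to 208 CPM, median 169.5 (log2 difference -1.40, adjusted p = 0.0396, edgeR). ARID4A, a chromatin-binding repressor, was the most abundant of the 15 genes that fell most, at 8882, 10072, 2711, 5518 and 1882 CPM against 1761 to 2674 CPM, median 2198 (log2 difference -1.39). The same 3 pools were the highest for all 3 genes.

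Among centrosome and microtubule genes, CEP290, needed for cilia and centriolar satellites, was at 2596, 3137, 874, 1656 and 774 CPM against 413 to 998 CPM, median 661 (log2 difference -1.34). AKAP9, a scaffold that nucleates microtubules at the Golgi and centrosome, was at 2638, 2819, 702, 1622 and 580.2 CPM against 442 to 887 CPM, median 617 (log2 difference -1.34). Both again overlapped through normal B1 and deficient B4. CEP126, a centrosomal protein, and MAP9, a spindle-associated protein, did not overlap. CEP126 stood at 39.4 to 113 CPM in 18S-low and 15.2 to 36.4 CPM in 18S-high pools (log2 difference -1.35). MAP9 stood at 23.3 to 38.7 CPM and 7.07 to 15.8 CPM (log2 difference -1.37). ERI2, an exonuclease family member, also stayed apart, at 143, 98.98, 64.4, 55.02 and 73.8 CPM against 21.4 to 46.00 CPM, median 29.6 (log2 difference -1.46, SE 0.27, adjusted p = 0.0212, edgeR).

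Among called genes with a mean of at least 10 CPM and no LOC symbol, CDR1 had the largest fall, at 6400.1, 7163, 2137, 3185 and 1009.9 CPM against 889 to 1422 CPM, median 1249 (log2 difference -1.70, adjusted p = 0.0257, edgeR). Reads of CDR1 and of RNA from the opposite strand of its locus cannot be told apart, because the strand setting of the counts is not given in the sources used here. SLC30A6, a zinc transporter, fell by 1.60 on the log2 scale, at 57.4 to 155 CPM against 22.3 to 84.3 CPM. The others were MGAM2, related to intestinal maltase (log2 difference -1.43), ABI3BP, an extracellular matrix protein (log2 difference -1.41), THAP2, a zinc-finger protein (log2 difference -1.36), LCORL, a transcription factor known for its link to body size (log2 difference -1.30), and SREK1, a splicing regulator (log2 difference -1.29). All 15 passed the test, with adjusted p from 0.0212 to 0.0493 (edgeR). With genes detected as a covariate, MGAM2, ATRX, ARID4A, THAP2, AKAP9 and LCORL turned to positive differences, none of which passed.

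**Figure D4:**
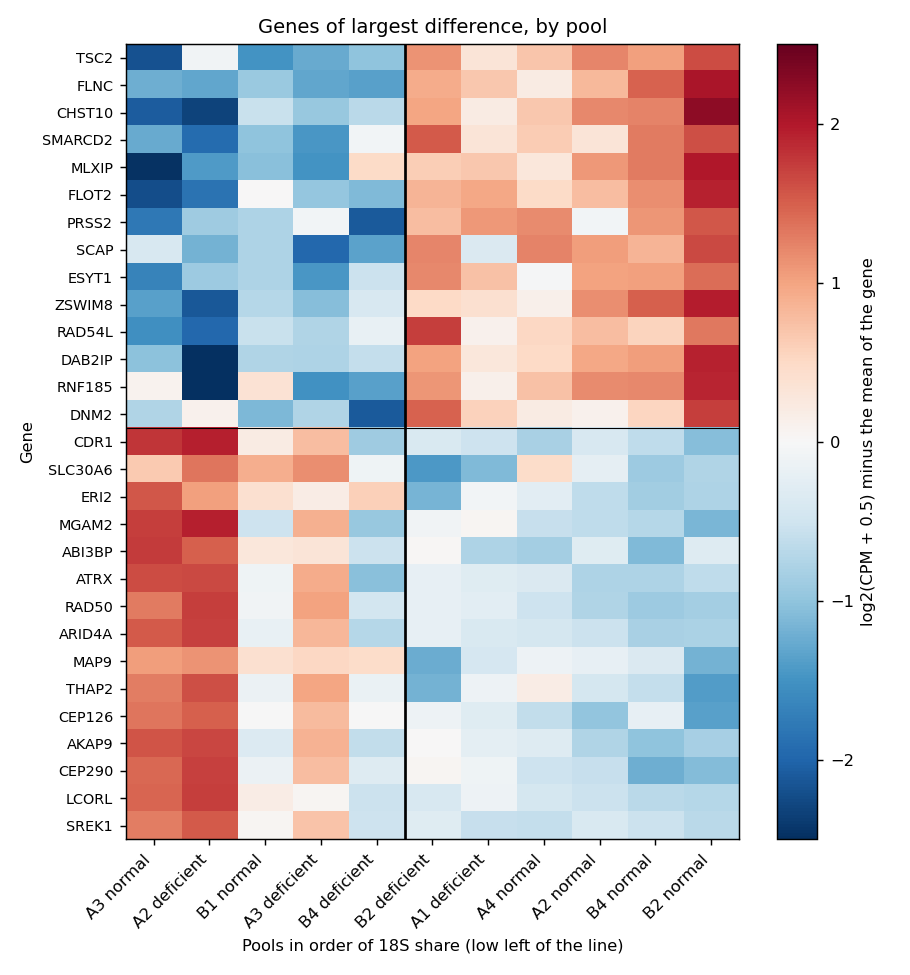
Level of 14 of the genes that rose most and the 15 that fell most (rows) in each pool (columns, in order of 18S share), as log2(CPM + 0.5) minus the mean of the gene; red is above and blue below that mean. The lower block is reddest in normal A3 and deficient A2, while deficient B4 and normal B1 are close to the 18S-high pools; the upper block is reddest in normal B2.

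The same pools stood out over all called genes. Deficient A2 held the highest level of the 18S-low set for 248 of the 570 genes that fell and normal A3 for 220, whereas deficient B4 held the lowest level for 368. Over all 15044 genes tested these numbers were 3150, 2981 and 2965. Normal B2, the pool with the largest 18S share, held the highest level of its set for 333 of the 527 genes that rose and the lowest for 369 of the 570 that fell. Over all 15044 genes it held the highest level for 3242 and the lowest for 2885. Without deficient A2 and normal A3 together, 1 gene was higher and 0 were lower (2847 at an unadjusted p under 0.05, edgeR). In that fit RAD50 stood at -0.67 and ATRX at -0.50, and FLNC at 2.26 and SCAP at 2.31. Both falls were thus smaller by over 1.5 times on the log2 scale, while both rises stayed close to their values over all pools. These genes were picked by hand. The pools left out were the highest for RAD50 and ATRX, so a smaller fall was set in advance. Deficient A2 and normal A3 also held the lowest level of the 18S-low set for 202 and 193 of the 527 genes that rose. Over all 15044 genes they did so for 4119 and 4183. The picked genes do not show that only the falls rest on these pools.

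The unnamed-locus genes of highest level that passed were LOC100624979, LOC100621706 and LOC106506353, which fell, and LOC100519960, LOC100620761 and LOC100512219, which rose. LOC100624979 stood at 8109, 8630.1, 3773, 5113 and 4167 CPM against 1681 to 3831 CPM, median 2641 (log2 difference -1.09). LOC100621706 was at 4515, 4079, 2377, 3458 and 2381 CPM against 1006 to 2197 CPM, median 1789 (log2 difference -1.07), with no overlap. LOC100512219 was at 309, 297, 418, 451 and 431 CPM against 512 to 957 CPM, median 680.4 (log2 difference 0.82), also with no overlap. What these loci encode is not given in the files.

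Most mRNAs of 40S ribosomal proteins, the partners of 18S RNA in the small subunit, had positive differences, but few passed. Of 27 tested, 26 were positive with a median of 0.98, beside a median of 0.08 over all genes tested. The test was passed by 2, among them RPS15A, and none fell. RPS15A stood at 5.70, 5.55, 4.18, 5.53 and 5.81 CPM against 7.49 to 16.8 CPM, median 9.35, without overlap, and was close to the threshold (difference 1.12, adjusted p = 0.0499, edgeR). Together the 40S protein mRNAs took 0.0258% to 0.0317% of counts in 18S-low pools and 0.0318% to 0.0720% in 18S-high pools, without overlap (two-sided exact permutation p = 0.00667, adjusted 0.0267). These shares are on plain library totals, where the median difference over all genes was 0.38 and 69% of differences were positive. Counts of ribosomal protein genes are uncertain, since processed copies elsewhere in the genome can share their reads.

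mRNAs of 60S ribosomal proteins were less uniform: 21 of 30 were positive, the median was 0.43, and 0 passed in either direction. RPL11, which also binds the p53 regulator MDM2, stood at 2.55, 4.28, 4.59, 3.72 and 5.08 CPM against 5.01 to 13.7 CPM, median 8.94 (log2 difference 1.20, adjusted p = 0.0644, edgeR). RPL6 stood at 4.69, 16.9, 8.64, 11.7 and 6.58 CPM against 9.32 to 25.9 CPM, median 18.6 (log2 difference 1.09, adjusted p = 0.0835, edgeR). Neither passed, and both overlapped between the sets. The 60S protein mRNAs together took 0.0204% to 0.0270% of counts in 18S-low pools and 0.0267% to 0.0471% in 18S-high pools (two-sided exact permutation p = 0.0133, adjusted 0.0267). The 60S shares are likewise on plain library totals, and their difference was not separated from the general shift on that scale. Without normal A3 the exact permutation p was 0.08 for the 40S and 0.06 for the 60S sum.

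Factors that make ribosomes moved in both directions. Of 51 tested factors of 40S assembly, 3 rose and 6 fell, with a median of -0.03 that became 0.25 with plain library totals. NAT10, which acetylates 18S RNA, rose: it was at 506, 401, 398, 491 and 307 CPM against 622 to 1247 CPM, median 938, without overlap (log2 difference 1.12, SE 0.21, adjusted p = 0.0223, edgeR). RCL1, involved in cutting the 18S precursor, rose too, at 12.2 to 23.99 CPM against 30.7 to 53.2 CPM (log2 difference 1.20). RIOK3, a kinase of late 40S maturation, fell, at 643 to 1156 CPM against 380.3 to 679.9 CPM (log2 difference -0.85). SSB, the La protein that binds new RNA polymerase III transcripts, was at 657, 623, 286, 432 and 197 CPM against 139 to 247 CPM, median 204, and fell as well (log2 difference -1.14).

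Of 45 tested factors of 60S assembly, 4 rose and 1 fell, with a median of 0.20. NOP2, a methyltransferase of 28S RNA, rose, at 6.54 to 12.4 CPM against 18.2 to 48.8 CPM without overlap (log2 difference 1.56, SE 0.32, adjusted p = 0.0229, edgeR). RRP12 and the helicase DDX56 passed at very low counts: RRP12 was at 0 to 0.720 CPM in 18S-low and 2.81 to 10.6 CPM in 18S-high pools, and DDX56 had 0 counts in all 5 18S-low pools and 0.0461 to 1.30 CPM in the 18S-high pools. No fold is given for them, since most 18S-low values are at or near the level of 3 counts. NSA2, a factor of 60S maturation, fell, at 64.4 to 136 CPM against 32.96 to 89.3 CPM (log2 difference -1.04).

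RNA polymerase I, which transcribes the 18S precursor, had 2 of 16 genes that rose, 0 that fell and a median of 0.71. POLR1A, its largest subunit, stood at 3.62, 0.273, 5.04, 1.06 and 5.46 CPM against 7.05 to 21.9 CPM, median 12.3 (log2 difference 1.91, SE 0.54, adjusted p = 0.0470, edgeR). UBTF, which loads the polymerase on ribosomal DNA, stood at 5.46, 10.6, 9.53, 5.18 and 10.5 CPM against 10.8 to 22.6 CPM, median 17.9 (log2 difference 1.12, adjusted p = 0.0450, edgeR). The sets of both genes came close without overlapping. Of 17 small nucleolar RNP and nucleolar genes, 0 rose and 2 fell, with a median of -0.10 that became 0.23 with plain library totals. NOP58, a core protein of the particles that guide ribosomal RNA methylation, fell, at 104 to 159 CPM against 57.2 to 95.2 CPM without overlap (log2 difference -0.82). NPM1, the abundant nucleolar chaperone, was at 4859.8, 5044, 2743, 3379 and 2001 CPM against 1799.6 to 2526 CPM, median 2083, and also fell (log2 difference -0.78), with overlap through deficient B4.

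The poly(A) polymerases PAPOLA and PAPOLG fell. Of 41 tested genes of polyadenylation, deadenylation and tail-dependent control, 2 rose and 5 fell, and the median of -0.22 became 0.10 with plain library totals. PAPOLA, the canonical nuclear poly(A) polymerase, was at 642, 609, 545, 519 and 515 CPM against 263 to 393 CPM, median 379, without overlap (log2 difference -0.66, SE 0.15, adjusted p = 0.0278, edgeR). PAPOLG, a related polymerase, was at 828, 892, 722, 783 and 521 CPM against 323 to 492 CPM, median 419, also without overlap (log2 difference -0.86, SE 0.17, adjusted p = 0.0227, edgeR). Both fell by less than 1 on the log2 scale. DAZL, a germ-cell protein that activates stored mRNAs, was at 163, 148, 154, 146 and 72.7 CPM against 54.3 to 99.7 CPM, median 65.5 (log2 difference -0.96), with deficient B4 well under the other 18S-low pools. ZCCHC6, which adds uridines to short tails, fell, at 178 to 402 CPM against 117 to 185 CPM (log2 difference -0.82).

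In RNA decay, 1 of 41 genes rose and 2 fell, with a median of -0.07 that became 0.26 with plain library totals. WDR61, a partner of the cytoplasmic exosome, rose, at 8.64 to 30.03 CPM against 38.8 to 95.6 CPM (log2 difference 1.57). DCP1A, a cofactor of mRNA decapping, was at 104 to 136 CPM against 75.2 to 93.96 CPM and fell (log2 difference -0.58). SKIV2L2, the helicase of the nuclear exosome, was at 486 to 670.1 CPM against 312 to 438 CPM and fell (log2 difference -0.55). None of the 3 overlapped between the sets.

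Translation factors were mixed, with 3 of 42 up, 2 down and a median of 0.19. EEF2, the factor that moves the ribosome along mRNA, was at 13.5, 20.1, 25.7, 22.03 and 49.2 CPM against 49.5 to 133 CPM, median 64.8 (log2 difference 1.51, SE 0.37, adjusted p = 0.0312, edgeR). EIF3L and EIF3D, subunits of the eIF3 complex that binds the 40S subunit, rose by a log2 difference of 1.29 and 1.67. EIF2A, an initiation factor that can deliver the initiator tRNA, fell, at 153 to 256 CPM against 94.4 to 140.4 CPM (log2 difference -0.77). EEF1A1, the abundant elongation factor, stood at 293, 299, 348, 294 and 283 CPM against 278 to 568.1 CPM, median 516, and did not pass (log2 difference 0.57, adjusted p = 0.0610, edgeR).

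Positive differences made up 53.5% of all genes tested, or 69% with plain library totals. This background for the mitochondrial lists is not matched for abundance. Over all genes tested, the median difference was 0.56 under 1 CPM and 0.25 from 1 to 10 CPM. The list medians were not separated from that trend. Of 63 mitochondrial ribosomal protein genes, 47 were positive with a median of 0.35, and 2 rose (MRPS7 and MRPL45). MRPS7 was at 1.31, 1.27, 0.891, 0.553 and 0.559 CPM against 3.20 to 4.61 CPM, median 4.38 (log2 difference 2.16), and MRPL45 had counts in 1 of the 18S-low pools, so no fold is given. Of 26 complex I genes, 20 were positive, the median was 0.48, and NDUFS3, NDUFA9 and NDUFB9 rose. NDUFS3, a subunit of the electron-transferring arm, stood at 31.3, 25.2, 26.3, 21.6 and 24.3 CPM against 31.02 to 75.04 CPM, median 55.3 (log2 difference 1.08, SE 0.24, adjusted p = 0.0248, edgeR). Complexes II to V had 19 of 24 positive, a median of 0.36 and 0 that passed. ATP5A1, the alpha subunit of ATP synthase, stood at 1.48, 1.18, 10.97, 12.1 and 4.52 CPM against 12.98 to 21.5 CPM, median 17.98, without passing (log2 difference 1.59, adjusted p = 0.0746, edgeR).

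In mtDNA maintenance and mitochondrial biogenesis, 2 of 29 genes rose and 1 fell, and 13 differences were positive and 16 negative, with a median of -0.06 that became 0.23 with plain library totals. LIG3, the DNA ligase of mitochondria, was at 310.1, 225, 302, 279.7 and 261 CPM against 396 to 676 CPM, median 545, without overlap (log2 difference 0.88, SE 0.16, adjusted p = 0.0193, edgeR). PPRC1, a coactivator of nuclear genes for mitochondria, rose by a log2 difference of 0.97. GABPA, a transcription factor for such genes, fell, at 102 to 140.0 CPM against 38.9 to 113 CPM (log2 difference -0.96). The mtDNA state itself gave 0 calls of 15044 genes (0%) with the 18S set in the model, and 841 at an unadjusted p under 0.05. Without the set it gave 0 of 13542, and 726 at an unadjusted p under 0.05 (edgeR).

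Several secreted and maternal-effect genes of the oocyte rose. Of 21 oocyte-specific genes 4 rose and 1 fell, with a median of 0.41. BMP15, a growth factor by which the oocyte instructs its cumulus cells, stood at 938, 1182, 905, 1118 and 1839 CPM in 18S-low pools and 1547 to 4089 CPM, median 2943, in 18S-high pools (log2 difference 1.45, SE 0.22, adjusted p = 0.0135, edgeR). Deficient B4 was the 18S-low pool that reached into the 18S-high range. GDF9, its partner, was at 1126, 1327, 955, 1179.7 and 1325 CPM against 1244 to 2625 CPM, median 1961 (log2 difference 0.81, SE 0.18, adjusted p = 0.0241, edgeR). TCL1B rose, at 1.84 to 2.88 CPM against 4.35 to 11.9 CPM (log2 difference 1.69). ZP3, a zona pellucida protein, was at 17.5 to 31.9 CPM against 20.6 to 116 CPM and did not pass (log2 difference 0.90, adjusted p = 0.0899, edgeR).

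Of 22 maternal-effect genes 3 rose and 0 fell, with a median of 0.39. ZAR1, a zinc-finger protein that binds and stores maternal mRNAs, had the smallest adjusted p of all genes tested. It stood at 52.6, 94.3, 99.7, 85.2 and 95.98 CPM in 18S-low pools and 209 to 341 CPM, median 265, in 18S-high pools, with a wide gap between the sets (log2 difference 1.70, SE 0.19, adjusted p = 0.00236, edgeR). ZAR1 passed in 24 of the 28 alternative fits tried, more than any other named gene. DPPA5 and SALL4, both known from pluripotent cells, rose by a log2 difference of 1.00 and 0.95, with overlap. PADI6, a protein of the cytoplasmic lattices, was at 30.4 to 63.1 CPM against 38.2 to 149.6 CPM and did not pass (log2 difference 0.85, adjusted p = 0.0562, edgeR).

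Meiotic genes mostly fell where they passed: 1 of 45 rose and 6 fell, with a median of -0.05 that became 0.23 with plain library totals. PLK1, a kinase that drives entry into and exit from division, rose, at 51.7, 61.8, 84.2, 66.7 and 47.8 CPM against 95.5 to 264 CPM, median 166, without overlap (log2 difference 1.38, SE 0.24, adjusted p = 0.0193, edgeR). TTK, the kinase that starts the spindle checkpoint, fell, at 419, 351, 286, 322 and 303 CPM against 146 to 239.9 CPM, median 196, without overlap (log2 difference -0.82, SE 0.18, adjusted p = 0.0242, edgeR). MASTL, which keeps M-phase phosphorylation up, fell, at 732 to 952 CPM against 436 to 665 CPM (log2 difference -0.60). SMC3, a cohesin subunit that holds sister chromatids together, was at 3721, 4171, 1812, 2879 and 1552 CPM against 962 to 1798 CPM, median 1361 (log2 difference -0.99).

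In both metabolic lists, the few genes that passed all rose, beside 3.5% higher and 3.79% lower over all genes tested. In lipid and cholesterol metabolism 4 of 39 rose, 0 fell and the median was 0.53. INSIG1, which holds SCAP in the endoplasmic reticulum, was at 11.3, 11.01, 19.03, 23.8 and 20.7 CPM against 31.5 to 47.7 CPM, median 42.3, without overlap (log2 difference 1.28, SE 0.27, adjusted p = 0.0234, edgeR). HSD17B7, an enzyme of cholesterol synthesis, was at 52.01, 69.9, 90.1, 53.4 and 79.8 CPM against 99.4 to 197 CPM, median 151, also without overlap (log2 difference 1.09). ACACA, which makes malonyl-CoA for fatty acid synthesis, rose by a log2 difference of 1.03. In glycolysis and the citrate cycle 3 of 36 rose, 0 fell and the median was 0.45. IDH2, mitochondrial isocitrate dehydrogenase, was at 1.42 to 6.75 CPM against 6.22 to 23.1 CPM (log2 difference 1.65). Of 32 proteasome genes 1 rose, PSMB1, at 0.704 to 2.13 CPM against 3.29 to 8.71 CPM (log2 difference 2.07), and the median was 0.53.

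Among 33 chromatin regulators 3 rose and 1 fell, with a median of 0.31. SETD1A, SETD1B and KMT2B, which methylate lysine 4 of histone H3, were the 3 that rose. SETD1A was at 60.02, 59.7, 55.6, 54.02 and 68.7 CPM against 108 to 242 CPM, median 162 (log2 difference 1.46, SE 0.21, adjusted p = 0.0103, edgeR). SETD1B was at 120.3, 63.9, 121, 107 and 125 CPM against 156 to 251 CPM, median 209 (log2 difference 0.90), and KMT2B rose by a log2 difference of 1.26. The sets did not overlap for any of them. CHD1, a remodeller that reads this mark, fell, at 1247, 971, 534, 670.0 and 423 CPM against 294 to 406 CPM, median 365 (log2 difference -1.12, SE 0.24, adjusted p = 0.0241, edgeR). Of 6 histone genes and genes of histone mRNA processing tested, 2 fell, NPAT (log2 difference -0.78) and CASP8AP2 (log2 difference -0.74), both of which take part in making histone mRNAs, and the median was -0.57.

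**Figure D5:**
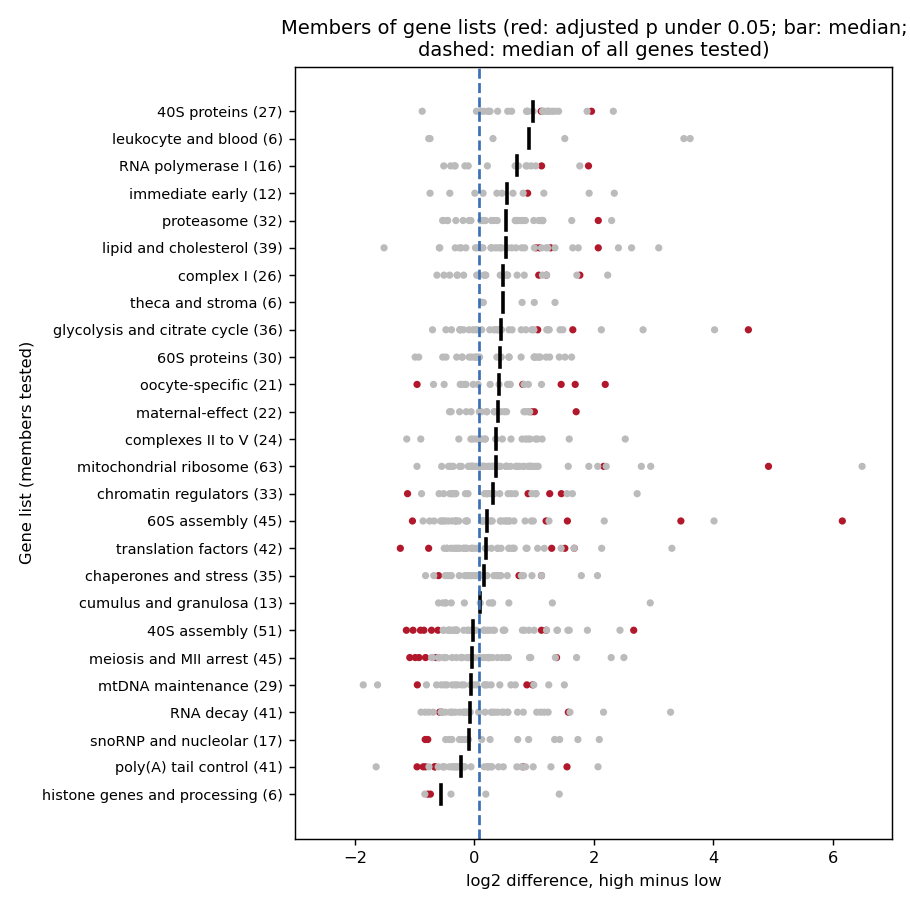
Difference between the sets (log2, horizontal axis) for each tested member of 26 gene lists, with the number tested in brackets; red points passed the test, bars are list medians and the dashed line is the median of all genes (0.08). Bars run from 0.98 for 40S proteins to -0.57 for histone genes, and those of 40S assembly, meiosis, mtDNA maintenance, RNA decay, nucleolar genes and poly(A) control turn positive with plain library totals.

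The lists were read against 3.5% of all genes higher and 3.79% lower, and most held between 0 and 6 calls. Nothing is called particular to a list from them. Neither these percentages nor the median over all genes were matched to the abundance of a list's members, which the direction followed. The pools carried the oocyte's defining transcripts in both sets. Summed levels of the 25 oocyte-specific genes in the table were 9476 to 15853 CPM in 18S-low and 13266 to 18577 CPM in 18S-high pools (plain totals). In pools of cells, fewer cells of a type and less RNA per cell cannot be told apart.

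Markers of other cells were summed over their lists, on plain totals. The 33 cumulus and granulosa genes summed to 240 to 339 CPM in 18S-low and 223 to 388 CPM in 18S-high pools, and 11 of them, including AMH, FOXL2, INHA and LHCGR, were at 0 in every pool. The 7 with a mean of at least 10 CPM were GATA4 (69.8 CPM), VCAN (66.4 CPM), INHBA (50.6 CPM), PGR (36.1 CPM), GREM1 (29.8 CPM), KITLG (14.04 CPM) and FDX1 (12.7 CPM). The 17 theca and stroma genes summed to 10.7 to 18.05 and 17.2 to 33.6 CPM, with CYP17A1 and INSL3 at 0 in every pool. The 22 leukocyte and blood genes summed to 20.02 to 38.1 and 42.4 to 51.5 CPM, without overlap. CD14, LYZ, TYROBP and AIF1 were among the 10 of this list at 0 in every pool. Others had higher means in the 18S-high set: CD3E 0.163 CPM in 18S-low and 1.74 CPM in 18S-high pools, PTPRC 0.267 and 1.10 CPM, and CSF1R 0.0136 and 0.278 CPM. The members with lower means there were PECAM1 (3.43 and 2.58 CPM), MS4A1 (0.725 and 0.678 CPM) and CD3G (0.0415 and 0 CPM). CD3E did not pass (adjusted p = 0.0559, edgeR). No fold is given for it, since most of its 18S-low values are at or near the level of 3 counts. In this list 1 gene had a mean of at least 10 CPM, TEK, an endothelial receptor (25.6 CPM in 18S-low and 38.2 CPM in 18S-high pools). The sum of the list averaged 30.3 and 45.5 CPM, so TEK made up most of it. TEK, PTPRC, PECAM1, MS4A1, CD3G and the cumulus genes other than PGR are named after their values were seen. None of the 13, 6 and 6 tested members of these lists passed. The part of such RNA in the results above was not tested.

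The set effect was not found to differ between the mtDNA states. The interaction of set and state gave 0 calls of 16187 genes (0%) by edgeR, where 739 had an unadjusted p under 0.05, 14 calls by DESeq2 and 0 by limma-voom. On the log2 scale its SE had a median of 1.03, against 0.48 for the set effect itself, so only large differences between the states could have been called.

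In the single oocytes, which had no part in forming the sets, RN18S took 2.06% to 4.86% of gene counts (median 3.46%). Their kit differs from that of the pools, so these shares do not compare the 18S RNA content of the oocytes. Oocytes dated 17 September had a median of 2.82% (n = 17) and those dated 22 September 3.89% (n = 12). Across the 29 oocytes, Spearman's rho between a gene's level and the 18S share was above 0 for 184 of the 445 genes that were higher in 18S-high pools and could be measured (41.3%, median rho -0.06). The value was above 0 for 224 of the 468 that were lower (47.9%, median -0.02), and for 50% of all 6520 genes. Within the oocytes of 17 September rho was above 0 for 224 of the 445 and 258 of the 468, and within those of 22 September for 171 and 245. The genes that rose with 18S share in pools thus did not lean to positive rho in single oocytes. The oocytes share a kit with specific depletion primers, which the pools did not have, and rho is given as a description.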

How the data were processed

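For each gene the deposited files hold raw counts in whole numbers, from paired-end reads of 100 bp. TopHat2 2.0.14, Trim Galore, FastQC, edgeR and build Sscrofa10.2 are named in the submitters' processing notes; no source used here gives the counting program or its strand setting. The row without a name (1.05% to 4.75% of counts in a pool) and RN18S were left out of totals and tests. Genes were tested in R 4.3.3 with edgeR 4.0.16 (default expression filter, TMM, quasi-likelihood test, model of mtDNA state and 18S set, Benjamini-Hochberg threshold 0.05); SE is the difference divided by the root of the F value. Alternatives were limma-voom (limma 3.58.1) and DESeq2 1.42.0. The test was tried on simulated counts drawn for each gene on its own around a common profile. Shifts shared by many genes of a pool were not simulated, so that trial does not cover them.

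Named are the 15 higher and 15 lower called genes of largest difference with a mean of at least 10 CPM and no LOC symbol, up to 3 called LOC genes per direction, up to 4 called members of each of 26 lists (or the 2 of smallest p), and a fixed set of 10 genes; some genes that this rule takes are not reported here. The pools, lists and rules were chosen with earlier results of these data known. No set test was run, and a list's count and median describe it. No 2 pools of the same state and set agreed within sampling noise (smallest chi-square per degree of freedom 34.9).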

Additional observations from a re-analysis of the deposited data

Results flagged for a closer look

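Within each set, 244 groups of pool values were searched for a pool that stood far from the rest, and 13 were found, where chance alone gives about 1 in 20 groups, or 12.2. The number found is thus near that given by chance, and the pools are listed as a description. In the 18S-low set, deficient A2 stood far under the other pools for DAB2IP (22.1 CPM) and for SETD1B (63.9 CPM). Normal A3 was far under the others for LOC100620761 (137 CPM) and ZAR1 (52.6 CPM), and deficient B4 for DAZL (72.7 CPM). Normal B1 stood apart 5 times: low for RPS15A (4.18 CPM) and for the row without a name (1.35% of counts), and high for EEF1A1 (348 CPM) and, with 0 in the other 18S-low pools, for MRPL45 and CSF1R (0.0686 CPM each). The values of MRPL45 and CSF1R lie under the level of 3 counts in that pool, 0.103 CPM. In the 18S-high set, normal B2 was high for RRP12 (10.6 CPM), deficient A1 low for EIF3L (34.2 CPM) and normal B4 low for MRPS7 (3.20 CPM).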

How the results depend on the processing

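Every gene called over all pools kept its sign in each alternative fit that tested it, except 8 of 1094 with the replicate block and 40 of 1097 with genes detected as a covariate. The fits reuse the counts that made the calls, so kept signs are no separate support. The number past the threshold moved widely. Of 2642 alternative values of the 95 named genes that passed, 1465 stayed past the threshold, 1171 kept their direction without passing and 6 reversed. Higher and lower genes numbered 1212 and 1139 with DESeq2, 806 and 50 with plain library totals, 928 and 950 without a low-count filter, 729 and 877 without mtDNA state in the model, and 944 and 1155 with the log2 18S share in place of the sets. Deficient pools alone gave 0 and 0 (1160 at an unadjusted p under 0.05, edgeR), and so did normal pools alone (3431). Leaving out 1 pool at a time gave 1 to 877 higher and 0 to 1015 lower genes. The interaction of set and state gave 14 calls with DESeq2 and 32 without a low-count filter. The number of calls stayed within 1.5 times with limma-voom, RLE factors, a minimum of 10 CPM, RN18S kept, the title letter as covariate, and without the 2 pools nearest the threshold. These fits shared 931, 1096, 925, 1096, 1077 and 639 of the 1097 calls. Not all 1097 were tested in each: the fit with a minimum of 10 CPM tested 931 of them, and that with RN18S kept 1096.

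With a replicate block for the title numbers shared by the states (8 pools), 0 genes were higher and 0 lower. At an unadjusted p under 0.05 there were 737 (edgeR). The same 8 pools without the block gave 330 and 453. Under the block, the sets differed only within the numbers A2 and B4. For each of these, the deficient pool was in the low set and the normal pool in the high set. Set thus went with state there, and the fall to 0 calls cannot show whether the calls rest on pairing. Residual correlations of same-numbered pools were 0.12 (A2), -0.17 (A3), 0.04 (B2) and 0.14 (B4) after state and set, and -0.09, 0.12, 0.42 and 0.07 after state alone. Of the 8 pools, 4 correlated best with their own number, a hint from the data and not from the design. Not every pair was over 0.1, and the numbers were not taken to pair the pools. The pools of A3, and those of B2, lie in a single set, so residuals after set lose part of what they share. Pairing was therefore not excluded, and the p-values over all pools treat same-numbered pools as independent. AGPAT1 turned to -0.049 under the block.

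Alternatives chosen after seeing the data were genes detected as a covariate (0 higher, 0 lower) and leaving out normal B1 and deficient A2 (1 and 0, with 3617 at an unadjusted p under 0.05) or deficient A2 and normal A3 (1 and 0). With the covariate, differences turned to 0.49 (MGAM2), 0.065 (ATRX), 0.059 (ARID4A), 0.092 (THAP2), 0.20 (AKAP9), 0.10 (LCORL), -0.15 (FN1), -0.49 (CSF1R), 0.089 (DNMT1), 0.25 (BTG4) and 0.20 (MDM2), of which the first 6 had passed over all pools. MDM2 turned to 0.10 without normal B1 and deficient A2 and to 0.24 in deficient pools, FN1 to -0.033 in normal pools, and DNMT1 to 0.042 without deficient A2 and normal A3. With plain library totals BTG4 turned to 0.088 and MDM2 to 0.0079, and list medians turned to 0.10 (poly(A) control), 0.23 (meiosis), 0.23 (mtDNA maintenance), 0.26 (RNA decay), 0.25 (40S assembly) and 0.23 (nucleolar genes). The cause was not tested.

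Of the library measures with 1 pool left out, the difference in genes detected kept its direction and stayed past an unadjusted 0.05, at 2155 to 3087 genes (2085 to 2800 at equal depth). On plain library totals, the 40S protein share differed by 0.0162 to 0.0242 percentage points and the 60S share by 0.0102 to 0.0142. The exact permutation p of the 40S share was 0.08 without normal A3, and that of the 60S share was 0.06 without normal A3 and 0.05 without deficient B2. The share of the 100 most abundant genes differed by -4.87 to -2.51 points, and passed without deficient B4. The unnamed row ranged from -0.56 to 0.19 points and reversed without normal A3 (0.0026) and without normal B2 (0.19). Depth, at 14454977 counts or more, limits chiefly genes near 3 counts per pool. The planned coding-length measure was not run.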

Other observations

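Of the genes in the fixed set that did not pass, 3 are given here. DNMT1, the maintenance DNA methyltransferase and the most abundant of the genes named, stood at 89242, 72888, 47706, 58196 and 35013 CPM in the 18S-low pools (normal A3, deficient A2, normal B1, deficient A3 and deficient B4) and 33911 to 55265 CPM, median 48056, in the 18S-high pools, and did not pass (log2 difference -0.39, adjusted p = 0.310, edgeR). BTG4, which recruits the deadenylase that clears maternal mRNA, was at 4524, 5347, 3416, 3624 and 4369.8 CPM against 2295 to 5161 CPM, median 3422 (log2 difference -0.24, adjusted p = 0.471, edgeR). SETDB1, a histone H3 lysine 9 methyltransferase, was at 118 to 183 CPM against 156 to 269 CPM and did not pass (log2 difference 0.32, adjusted p = 0.206, edgeR).

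Among 35 chaperone and stress genes 2 rose and 1 fell. CCT3, a subunit of the cytosolic chaperonin, was at 14.6, 14.6, 33.05, 30.5 and 20.7 CPM against 36.4 to 63.9 CPM, median 52.00, without overlap (log2 difference 1.12), and ERN1, a sensor of unfolded proteins, rose by a log2 difference of 0.75. CANX, a lectin chaperone of the endoplasmic reticulum, fell, at 222 to 395 CPM against 149 to 285 CPM (log2 difference -0.60). Of 12 immediate early genes 1 rose, the transcription factor KLF4, at 30.2, 13.3, 23.2, 30.2 and 28.3 CPM against 40.9 to 60.2 CPM, median 42.8, without overlap (log2 difference 0.89).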
